A study of Mus musculus with 12 samples.

Results

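The transcripts described here belong to 9 genes of the intestinal tight junction: the claudin genes Cldn2, Cldn3, Cldn4, Cldn7 and Cldn15, the membrane protein genes Ocln and F11r, and the plaque protein genes Tjp1 and Cgn. They were found as every probe whose accession in the scanner files maps to one of these genes, which gave 12 probes for the 9 genes out of 56583 probes and 22905 named genes. Cldn2, Tjp1 and Cgn had 2 probes each and the other genes 1 probe, and all 12 probes were well above background on all 12 arrays. Whole duodenum of 12 male mice, 3 in each of 4 groups, gave the RNA for 12 one-colour Agilent arrays. Mice with the intestinal alkaline phosphatase gene Akp3 knocked out (Akp3-/-, here KO) received the pentapeptide IIAEK or vehicle. Wild-type mice (WT) received the same 2 treatments. Dosing began at 7 weeks of age and was by mouth, once a day for 14 days, at 600 mg IIAEK per kg body weight. In every group the carrier was sodium carboxymethylcellulose at 5 g/L, and every mouse fasted for 8 h before the duodenum was taken. The source labels of the IIAEK samples write weeks where the titles and the design write 14 days, which is used here. The sources used here do not say how the knockout was made or on which strain.

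Tight junctions seal the gap between neighbouring epithelial cells near their apical side and set which ions and solutes pass between the cells. Claudins form the strands: some, such as claudin-2 and claudin-15, line channels for small cations, and others tighten the barrier. Occludin and the adhesion molecule JAM-A sit in the same membrane domain, and the scaffold ZO-1 and its partner cingulin tie it to the actin cytoskeleton. Intestinal alkaline phosphatase, a brush border enzyme, removes phosphate from bacterial endotoxin and has been studied in mice as a regulator of this barrier. IIAEK is a cholesterol-lowering peptide of milk beta-lactoglobulin.

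All values below are levels: log2 of the background-subtracted intensity minus the 75th percentile of that array, so that a level of 0 equals the brightness of the 75th percentile. A level can be compared between mice but not between probes, and a difference of 1 between groups is a 2-fold difference. Brightness at the 75th percentile was 195 to 465 intensity units, 55.9% to 64.0% of probes were well above background, and no probe was saturated. By its brighter probe, Akp3 itself had levels of -4.90 to -3.80 on the 6 KO arrays and of 1.05 to 2.72 on the 6 WT arrays, so every array matched its genotype label. The sources used here do not say whether these probes lie in the deleted part. The 12 enterocyte genes, 7 epithelial genes and 6 duodenal genes chosen as markers were all above background on every array. Among them the alkaline phosphatase gene Alpi read 6.11 to 6.74 on the 6 KO arrays and 6.48 to 7.49 on the 6 WT arrays. The tissue pieces were not uniform in what else they held. Genes of the gastric surface (6 tested, among them Tff1, Tff2 and Gkn2) had mean levels of 3.42 to 5.07 on 6 arrays and of -2.50 to -1.03 on the other 6. The 6 high arrays were KO IIAEK mouse 3, KO vehicle mouse 1, WT IIAEK mouse 3 and all 3 WT vehicle mice. Pancreatic genes averaged 1.75 in WT vehicle mouse 1 and 6.54 to 8.77 in the other mice. The arrays lay on 2 slides: slide 1 held 2 KO IIAEK, 1 KO vehicle, 2 WT IIAEK and 2 WT vehicle arrays, and slide 2 held 1, 2, 1 and 1. In whole tissue, fewer cells of a type and less RNA per cell cannot be told apart.

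The promoters of the members whose levels are followed most closely below are shown first. Each window is 300 bases of RefSeq sequence on GRCm38.p6, from 250 bases before to 50 bases after the annotated start, written 5′ to 3′ on the strand of the gene. Capitals mark matches, on either strand, to 6 motifs: the TATA box TATAAA, the CDX site TTTATG, the HNF1 half-site GTTAAT, the Snail E-box CAGGTG, the Sp1 GC box GGGCGG and the HNF4 site CAAAGNCCA.
Cldn2, chrX:139800558-139800857 (+ strand): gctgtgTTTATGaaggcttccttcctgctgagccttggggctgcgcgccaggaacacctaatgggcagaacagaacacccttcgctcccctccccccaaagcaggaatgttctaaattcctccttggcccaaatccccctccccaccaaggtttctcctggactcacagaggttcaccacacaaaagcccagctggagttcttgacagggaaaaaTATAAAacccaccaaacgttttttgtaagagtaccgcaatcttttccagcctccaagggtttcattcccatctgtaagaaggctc
Cldn15, chr5:136967619-136967918 (+ strand): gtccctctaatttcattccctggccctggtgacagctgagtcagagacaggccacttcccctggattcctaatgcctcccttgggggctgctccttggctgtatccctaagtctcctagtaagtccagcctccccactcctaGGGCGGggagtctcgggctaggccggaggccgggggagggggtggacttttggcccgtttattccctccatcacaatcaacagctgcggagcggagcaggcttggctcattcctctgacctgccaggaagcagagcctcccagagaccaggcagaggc
Cldn3, chr5:134985964-134986263 (+ strand): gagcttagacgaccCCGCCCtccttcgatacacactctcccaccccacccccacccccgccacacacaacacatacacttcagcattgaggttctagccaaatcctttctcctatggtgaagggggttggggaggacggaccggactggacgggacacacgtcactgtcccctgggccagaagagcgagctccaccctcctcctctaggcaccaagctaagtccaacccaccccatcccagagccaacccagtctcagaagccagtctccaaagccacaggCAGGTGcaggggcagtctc
Cldn4, chr5:134946885-134947184 (- strand): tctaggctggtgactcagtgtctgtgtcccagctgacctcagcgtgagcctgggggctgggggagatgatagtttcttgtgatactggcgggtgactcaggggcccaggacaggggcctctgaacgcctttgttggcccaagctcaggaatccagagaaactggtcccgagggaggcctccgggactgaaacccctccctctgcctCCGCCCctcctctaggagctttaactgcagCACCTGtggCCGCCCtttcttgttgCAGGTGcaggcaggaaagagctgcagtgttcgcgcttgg
Ocln, chr13:100552669-100552968 (- strand): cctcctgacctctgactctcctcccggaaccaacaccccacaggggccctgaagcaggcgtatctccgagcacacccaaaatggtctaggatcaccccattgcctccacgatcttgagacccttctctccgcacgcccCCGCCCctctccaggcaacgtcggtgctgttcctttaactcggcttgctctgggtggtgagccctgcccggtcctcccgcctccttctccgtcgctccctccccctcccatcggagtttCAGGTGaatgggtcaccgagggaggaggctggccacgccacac
The Cldn2 window differed in its letters from those of the other members. It was the only member with a TATAAA, at position -35 from the start, and the only one with a TTTATG, at -244, whereas 13.6% and 11.9% of all 32851 promoter windows hold these letters. The other 8 members each had at least 1 GC box in at least 1 window, and Cldn2 had none. Counted by window, 9 of the 11 member windows had a GC box, against 35.7% of all windows. CAGGTG was found in Cldn3, Cldn4, Cldn7, Ocln and F11r, in 6 of the 11 member windows, against 20.2% of all windows. No member held GTTAAT or CAAAGNCCA, which 7.1% and 1.98% of windows hold. GC content ran from 51.3% in Cldn2 to 70.3% in Cgn over the 11 windows of the 9 genes. These are matches of letters only, and no binding was measured here.

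No tight junction gene passed the test in any of the 7 comparisons that the design implies, by limma at an adjusted p under 0.05 over all 26107 features. The differences farthest from 0 relative to their error were higher Ocln in KO mice under vehicle and lower Cldn2 under IIAEK, in WT mice and averaged over genotypes, and these had unadjusted p-values under 0.05 but adjusted ones above 0.9. For KO against WT under vehicle, 0 of 9 members were called, with 0.00766% of all features called, and 1 of 9 (Ocln) was under an unadjusted p of 0.05, with 3.85% of all features under it. The 3 KO mice did not overlap the 3 WT mice for 2 of the 9 members (Cldn7 and Ocln, both higher in KO), as for 14.4% of all features, or 8.5% counting higher ones only. For 7 of the 9 members the KO mean was the higher one (8 with normexp background correction and 6 with quantile scaling), against 54.6% of all features, and the members' median log2 difference was 0.22, against 0.03 for all features. Markers of other tissues moved in the same comparison: 13 of 13 pancreatic genes were above 0 (median 2.06), and 0 of 8 smooth muscle genes (median -0.29), 0 of 7 enteric neuron and glia genes (median -0.27) and 0 of 6 gastric surface genes (median -4.03) were. Pancreatic genes averaged 1.75, 7.74 and 8.23 in the WT vehicle mice and 6.54, 8.77 and 8.31 in the KO vehicle mice, so 1 WT mouse stood apart. The part of these tissues in the members' values was not tested. For KO against WT under IIAEK, 0 members were called (0.00766% of all features) and 1 was under an unadjusted p of 0.05 (Cgn, lower in KO; 1.31% of all features). Cgn was also the 1 member without overlap, against 3.85% of all features, or 2.19% counting lower ones only. In that comparison 4 of 9 members were above 0 (5 with normexp), against 47.5% of all features, and the members' median difference was -0.02.

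For IIAEK against vehicle in WT mice, 0 members were called (0% of all features), and 2 were under an unadjusted p of 0.05 (Cldn2, lower, and Cldn3, higher; 3.14% of all features). All 3 IIAEK mice lay above all 3 vehicle mice for 4 of the 9 members (Cldn3, Cldn7, Ocln and Cgn), against 9.28% of all features without overlap, or 5.58% counting higher ones only. The members' median difference was 0.22 with 7 of 9 above 0, against a median of 0.03 and 56.3% above 0 for all features. In the same comparison 11 of 12 enterocyte villus genes were above 0 with a median of 0.20, and 2 of 7 epithelial genes with a median of -0.04, while 12 of 13 pancreatic genes (median 2.14) and 1 of 6 gastric surface genes (median -3.18) were above 0. WT vehicle mouse 1, low in pancreatic genes, enters this comparison too. The part of villus, pancreatic and gastric content in the members' values was not tested. For IIAEK against vehicle in KO mice, 0 members were called (0%), 0 were under an unadjusted p of 0.05 (1.91% of all features) and none was without overlap (4.68%). The members' median difference there was -0.09, with 2 of 9 above 0 (1 with normexp and 3 with quantile scaling), against 49.2% of all features.

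The difference between the IIAEK effects in KO and WT mice was called for 0 members (0% of all features) and was under an unadjusted p of 0.05 for 0 members (1.52%). It was above 0 for 2 of 9 members (1 with normexp), against 44.1% of all features, and had a median of -0.26. The 12 enterocyte villus genes had a median of -0.25 with 0 above 0, the 13 pancreatic genes a median of -2.08 with 1 above 0, the 8 smooth muscle genes a median of 0.26 with 8 above 0, and the 6 gastric surface genes a median of 3.89 with 6 above 0, and their part in the members' values was not tested. The member nearest the threshold was Cldn7, with a log2 difference of differences of -0.37 (SE 0.18, 95% CI -0.76 to 0.03). Averaged over treatments, KO against WT called 0 members (0.0192% of all features) and had 1 under an unadjusted p of 0.05 (Ocln; 3.03% of all features), with 7 of 9 above 0 (8 with normexp and 6 with quantile scaling; 52.3% of all features). Averaged over genotypes, IIAEK against vehicle called 0 members (0%) and had 1 under an unadjusted p of 0.05 (Cldn2; 2.94%), with 7 of 9 above 0 (5 with quantile scaling; 55.2% of all features). The comparisons share groups, so the same arrays enter several of these counts. WT vehicle mouse 1, the mouse low in pancreatic genes, enters each comparison that holds the WT vehicle group.

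**Figure D1:**
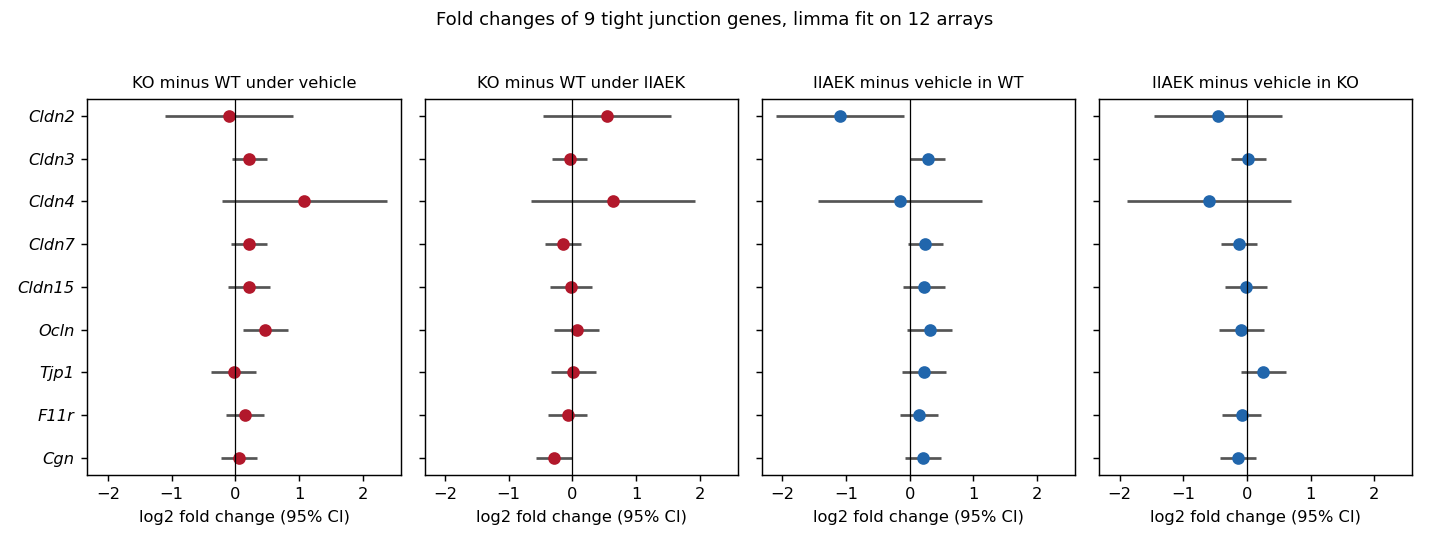
Log2 fold change (horizontal axis) of the 9 tight junction genes (rows) in 4 comparisons, one per panel, from the limma fit to 12 arrays; points are estimates, lines 95% confidence intervals, and the vertical line marks 0. The intervals of Cldn2 and Cldn4 are wide, those of the other 7 genes narrow, and few leave 0: Ocln in the KO against WT panel under vehicle, Cgn in the KO against WT panel under IIAEK, and Cldn2 and Cldn3 in the WT panel for IIAEK.

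Of the claudins that form cation channels, Cldn2 varied most. Claudin-2 lets sodium and water pass between cells and in the adult gut is found mainly in crypts. Its brighter probe had levels of 2.50, 2.02 and 3.46 in KO IIAEK mice, 3.57, 2.86 and 2.93 in KO vehicle mice, 1.74, 1.39 and 3.23 in WT IIAEK mice, and 3.03, 3.27 and 3.34 in WT vehicle mice. The 4 lowest levels were IIAEK mice 1 and 2 of both genotypes, while mouse 3 of each IIAEK group reached the range of the vehicle mice, so the groups overlapped in both genotypes. In WT mice the IIAEK mean was 2.12 ± 0.98 and the vehicle mean 3.21 ± 0.17 (SD, n = 3 each). The difference was -1.09 (SE 0.46, 95% CI -2.10 to -0.09), or 2.13-fold lower under IIAEK, with an adjusted p of 0.999 by limma. In KO mice the IIAEK mean was 2.66 ± 0.74 and the vehicle mean 3.12 ± 0.39 (SD, n = 3 each), a difference of -0.46 (SE 0.46). The IIAEK effect in KO minus that in WT was 0.63 (SE 0.65, 95% CI -0.79 to 2.06, limma adjusted p = 0.99999), so a difference between genotypes could not be resolved. Leaving out 1 array moved the WT difference to as far as -1.65 (without WT IIAEK mouse 3) and -0.73 (without WT IIAEK mouse 2), and the KO difference to -0.86 (without KO IIAEK mouse 3) and -0.14 (without KO IIAEK mouse 2). The dimmer Cldn2 probe gave the same directions, with -0.92 (SE 0.38, limma adjusted p = 0.999) in WT mice and -0.37 (SE 0.38) in KO mice. By that probe the WT treatments did not overlap, with levels of -3.03, -2.45 and -1.53 under IIAEK and -1.49, -1.40 and -1.36 under vehicle. Both probes placed WT IIAEK mice 1 and 2 and KO IIAEK mouse 2 as the 3 lowest of 12.

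The Cldn2 differences were larger on slide 1 in WT mice and of opposite sign on the 2 slides in KO mice, and the Cldn2 level also went with the gastric content of the arrays; the part of either in the differences was not tested. Within slide 1 the IIAEK difference in WT mice was -1.58 (SE 0.21, limma adjusted p = 0.0248), the range of the adjusted p over all alternatives being 0.0248 to 0.99999. On slide 2 it was -0.11, from 1 IIAEK array against 1 vehicle array. In KO mice it was -1.31 within slide 1, from 2 IIAEK arrays against 1 vehicle array, and 0.57 within slide 2, from 1 against 2. The difference between the slides was not tested. Averaged over genotypes, where the fit to all arrays gave -0.78 (SE 0.32), it was -1.44 within slide 1 (SE 0.17, limma adjusted p = 0.0131) and 0.23 within slide 2. The call in slide 1 rests on 2 IIAEK arrays for each genotype against 2 WT vehicle arrays and 1 KO vehicle array. That KO vehicle group is assumed to vary like the others. The share of all features called on slide 1 is not given here. All 4 IIAEK arrays of slide 1 had low gastric surface genes and all 3 of its vehicle arrays had high ones, so that IIAEK and gastric content cannot be told apart on that slide. Across the series, Cldn2 read 3.03 to 3.57 on the 6 arrays with high gastric surface genes and 1.39 to 2.93 on the 6 with low ones. These ranges did not overlap, while those of every other member did. The share of all features that separate in the same way was not counted. By group, mean gastric surface levels ran from -2.50 to 4.64 in KO IIAEK, from -2.26 to 3.47 in KO vehicle, from -2.11 to 5.07 in WT IIAEK and from 3.42 to 3.83 in WT vehicle mice. Of the 7 gastric surface genes with a probe, Tff1, Tff2 and Cldn18 were above background on all 12 arrays, Gkn1 on 6 and Sox2 on 3. With the gastric surface and pancreatic levels as covariates, the IIAEK difference of Cldn2 was -0.65 in WT mice (SE 0.19, limma adjusted p = 0.99999) and -0.52 in KO mice (SE 0.17). Among the 6 arrays with low gastric genes, the 2 KO vehicle mice read 2.86 and 2.93. The 2 KO IIAEK mice (2.50 and 2.02) and the 2 WT IIAEK mice (1.74 and 1.39) read lower, and no WT vehicle mouse was among them. Those KO vehicle arrays were on slide 2 and those IIAEK arrays on slide 1, so treatment and slide cannot be told apart there. Among the 6 arrays with high gastric genes, the IIAEK mice read 3.46 (KO) and 3.23 (WT), within the 3.03 to 3.57 of the vehicle mice.

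**Figure D2:**
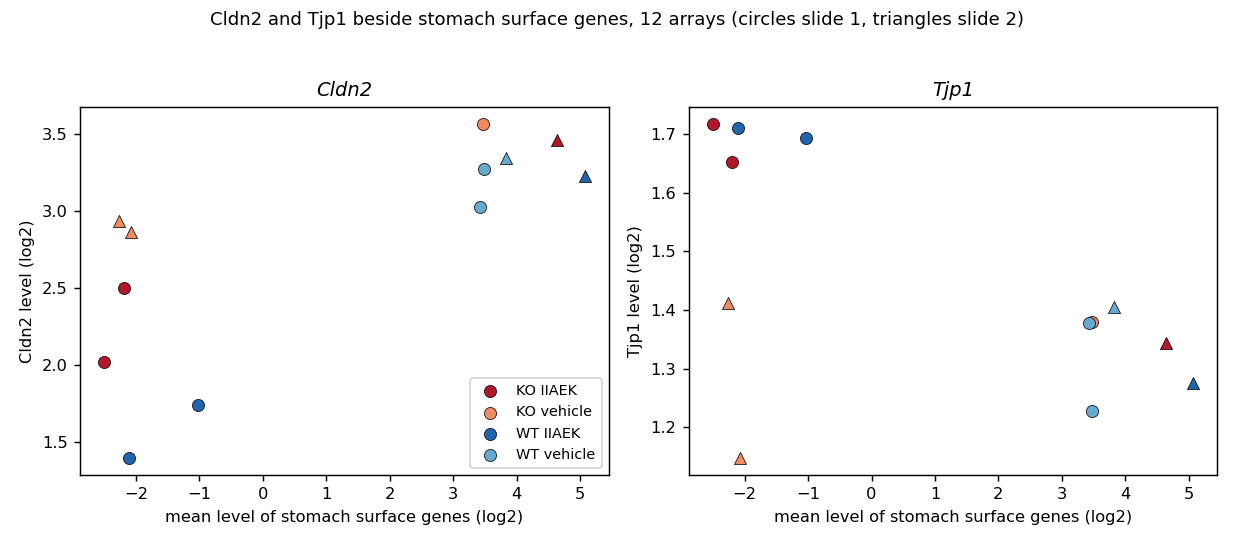
Levels of Cldn2 (left) and Tjp1 (right) on the vertical axes against the mean level of 6 gastric surface genes on the horizontal axes, all in log2 units relative to the 75th percentile; each point is 1 of 12 mice, coloured by group, with circles for slide 1 and triangles for slide 2. Cldn2 lies at 3.03 to 3.57 where gastric surface genes are high and at 1.39 to 2.93 where they are low, and the low points spread widely. Tjp1 lies at 1.23 to 1.40 where they are high and at 1.15 to 1.72 where they are low.

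Claudin-15, which carries sodium between the enterocytes of the small intestine and whose loss in mice enlarges the upper small intestine, moved little. Cldn15 levels were 5.46, 5.65 and 5.51 in KO IIAEK mice, 5.28, 5.68 and 5.70 in KO vehicle mice, 5.49, 5.68 and 5.51 in WT IIAEK mice, and 5.25, 5.22 and 5.52 in WT vehicle mice. All 4 groups overlapped. The largest difference was IIAEK against vehicle in WT mice, 0.23 (SE 0.15), which was 0.35 on slide 1 and -0.01 on slide 2. KO minus WT was 0.22 (SE 0.15) under vehicle and -0.02 (SE 0.15) under IIAEK.

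**Figure D3:**
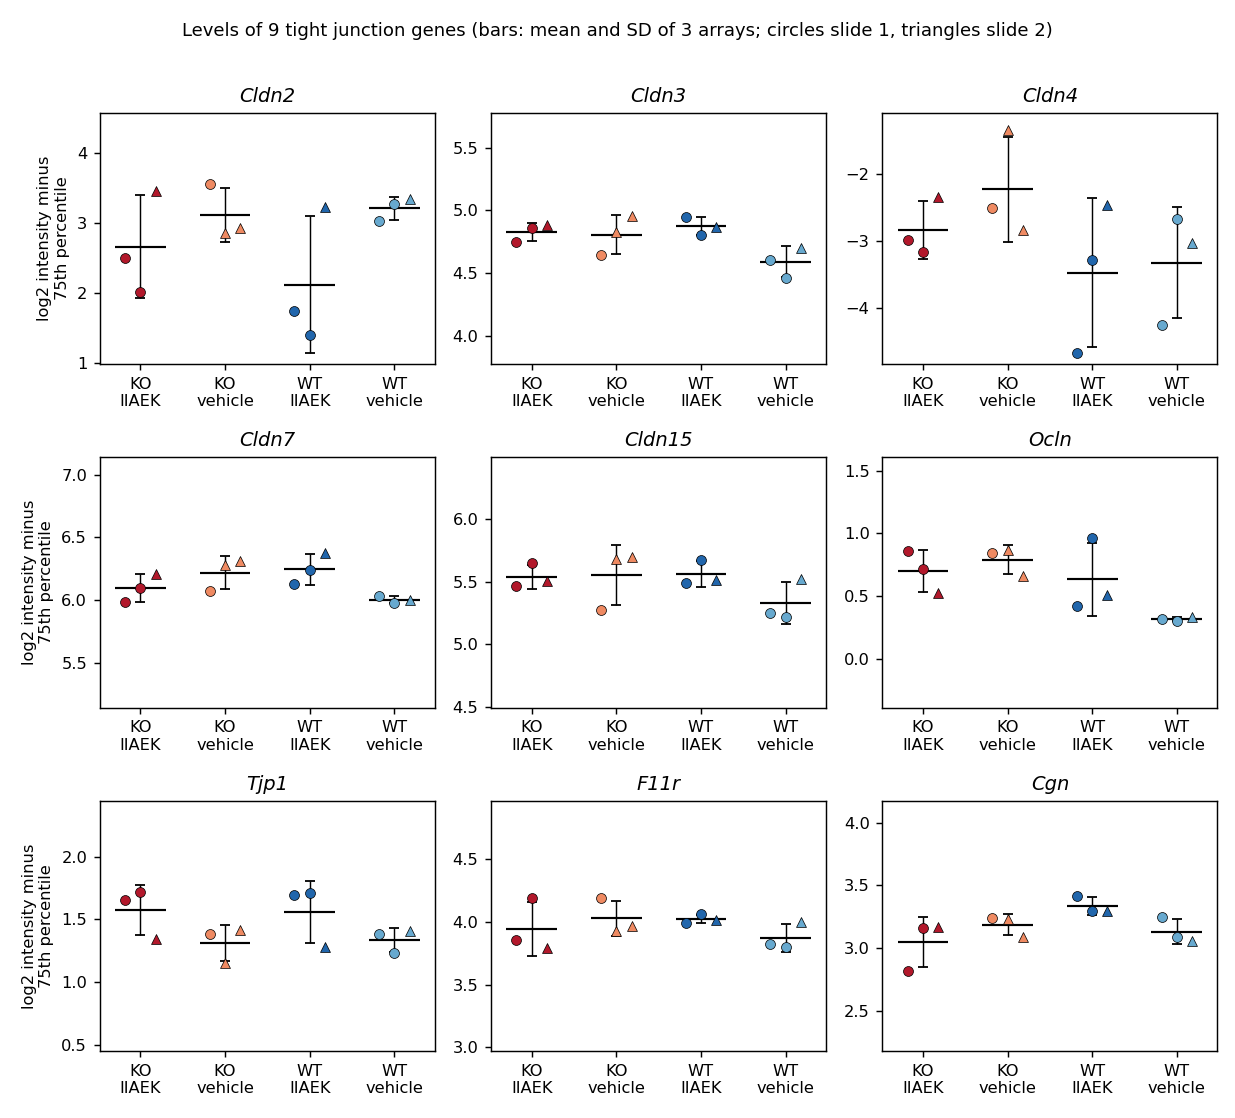
Level (vertical axis, log2 intensity minus the 75th percentile of the array) of each of the 9 genes by its brightest probe in KO IIAEK, KO vehicle, WT IIAEK and WT vehicle mice; points are mice, horizontal lines group means and error bars the SD of 3 mice. Cldn2 and Cldn4 spread over more than 2 log2 units, whereas the WT vehicle mice lie together at the bottom for Ocln (0.30 to 0.33).

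Of the barrier-forming claudins, Cldn3 and Cldn7 were among the steadiest transcripts on the arrays and Cldn4 among the most variable. The pooled SD within groups placed Cldn7 at the 2.66th and Cldn3 at the 3.42nd percentile of all features, and Cldn4 at the 95.2nd, beside the 91.2nd for Cldn2. These percentiles rank features of every brightness together. The probes of Cldn7 and Cldn3 were bright (mean levels 6.14 and 4.77) and that of Cldn4 dim (-2.96), and the part of brightness in the ranks was not tested. Claudin-3 is a sealing claudin. Cldn3 had levels of 4.75, 4.86 and 4.88 in KO IIAEK mice, 4.64, 4.82 and 4.95 in KO vehicle mice, 4.94, 4.80 and 4.87 in WT IIAEK mice, and 4.60, 4.46 and 4.70 in WT vehicle mice. The WT vehicle mice were the lowest group on average, and in WT mice the treatments did not overlap. The difference for IIAEK in WT was 0.28 (SE 0.13, 1.22-fold, limma adjusted p = 0.999), with 0.34 on slide 1 and 0.17 on slide 2. In KO mice it was 0.02 (SE 0.13).

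Claudin-7, which lies along the lateral membrane and whose loss damages the intestinal epithelium in mice, also had its lowest mean in WT vehicle mice. Cldn7 levels were 5.99, 6.09 and 6.21 in KO IIAEK mice, 6.07, 6.28 and 6.31 in KO vehicle mice, 6.13, 6.24 and 6.37 in WT IIAEK mice, and 6.03, 5.98 and 5.999 in WT vehicle mice. Every KO vehicle mouse and every WT IIAEK mouse lay above every WT vehicle mouse. KO minus WT under vehicle was 0.22 (SE 0.13, limma adjusted p = 0.993), and IIAEK minus vehicle in WT was 0.24 (SE 0.13, limma adjusted p = 0.999). In KO mice IIAEK minus vehicle was -0.12 (SE 0.13).

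Claudin-4, which limits sodium passage in cultured epithelia, had Cldn4 levels of -2.99, -3.17 and -2.35 in KO IIAEK mice, -2.51, -1.36 and -2.83 in KO vehicle mice, -4.66, -3.28 and -2.47 in WT IIAEK mice, and -4.25, -2.68 and -3.03 in WT vehicle mice. The groups overlapped in all 4 paired comparisons, the lowest levels were those of mouse 1 of both WT groups, and the highest that of KO vehicle mouse 2. KO minus WT was 1.09 (SE 0.59, 95% CI -0.20 to 2.37, limma adjusted p = 0.993) under vehicle and 0.63 (SE 0.59) under IIAEK. These intervals include both no difference and a difference of more than 2-fold. Single arrays moved these values by more than 1.5 times: under vehicle the difference was 0.62 without WT vehicle mouse 1 and 0.65 without KO vehicle mouse 2, and under IIAEK it was 0.04 without WT IIAEK mouse 1 and 1.13 without WT IIAEK mouse 3.

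Occludin, a membrane protein of the tight junction strand, separated the genotypes under vehicle. Ocln had levels of 0.86, 0.72 and 0.52 in KO IIAEK mice, 0.84, 0.87 and 0.66 in KO vehicle mice, 0.42, 0.96 and 0.51 in WT IIAEK mice, and 0.32, 0.30 and 0.33 in WT vehicle mice. The 3 WT vehicle mice were the 3 lowest of 12 and lay within 0.03 of one another, while the other 3 groups overlapped. Under vehicle the KO mean was 0.79 ± 0.11 and the WT mean 0.32 ± 0.01 (SD, n = 3 each). The difference was 0.47 (SE 0.16, 95% CI 0.12 to 0.82), or 1.39-fold, with an adjusted p of 0.993 by limma. Slide 1 gave 0.53 and slide 2 gave 0.43, and the value was 0.38 (SE 0.19) with the gastric surface and pancreatic levels as covariates. Under IIAEK the KO mean was 0.70 ± 0.17 and the WT mean 0.63 ± 0.29 (SD, n = 3 each), a difference of 0.07 (SE 0.16). IIAEK minus vehicle was 0.31 (SE 0.16) in WT mice and -0.09 (SE 0.16) in KO mice, and the difference between these effects, -0.40 (SE 0.23, 95% CI -0.90 to 0.10), did not pass the test. Without WT IIAEK mouse 2 the IIAEK difference in WT mice was 0.15 and the difference between the effects -0.24.

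F11r encodes JAM-A, an immunoglobulin-like adhesion molecule of the junction, and was close to level across groups. F11r had levels of 3.86, 4.19 and 3.79 in KO IIAEK mice, 4.19, 3.93 and 3.97 in KO vehicle mice, 3.99, 4.06 and 4.01 in WT IIAEK mice, and 3.82, 3.80 and 3.996 in WT vehicle mice. All compared groups overlapped. Its differences ran from -0.08 to 0.16 over the 4 paired comparisons, with an SE of 0.14 each.

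Of the plaque proteins, Tjp1, the gene of the PDZ scaffold ZO-1, was higher on average under IIAEK in both genotypes without passing the test. Its brighter probe had levels of 1.65, 1.72 and 1.34 in KO IIAEK mice, 1.38, 1.15 and 1.41 in KO vehicle mice, 1.69, 1.71 and 1.28 in WT IIAEK mice, and 1.38, 1.23 and 1.40 in WT vehicle mice. Mice 1 and 2 of each IIAEK group were the 4 highest of 12, and mouse 3 of each lay within the vehicle range, so the treatments overlapped. These are the same 4 mice that had the 4 lowest Cldn2 levels. All 4 were on slide 1 and had low gastric surface genes, and the part of either in the Tjp1 differences was not tested. IIAEK minus vehicle was 0.26 (SE 0.16) in KO mice and 0.22 (SE 0.16) in WT mice. Averaged over genotypes it was 0.24 (SE 0.11, limma adjusted p = 0.99998), with 0.35 on slide 1 and -0.03 on slide 2. The dimmer Tjp1 probe gave 0.21 averaged over genotypes and did not overlap between treatments in WT mice, where it read -0.57, -0.64 and -0.67 under IIAEK and -0.79, -0.96 and -0.90 under vehicle. KO minus WT by the brighter probe was -0.02 (SE 0.16) under vehicle and 0.01 (SE 0.16) under IIAEK.

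Cingulin links ZO-1 to actin and myosin. The brighter probe of Cgn had levels of 2.81, 3.16 and 3.17 in KO IIAEK mice, 3.24, 3.23 and 3.09 in KO vehicle mice, 3.42, 3.29 and 3.30 in WT IIAEK mice, and 3.24, 3.09 and 3.06 in WT vehicle mice. The WT IIAEK mice were the 3 highest of 12 and did not overlap either of the groups they are compared with. KO minus WT under IIAEK was -0.29 (SE 0.13, 1.22-fold lower, limma adjusted p = 0.99998), with -0.37 on slide 1 and -0.13 on slide 2, and it was -0.17 without KO IIAEK mouse 1. The dimmer Cgn probe gave -0.19 (SE 0.24) and overlapped, with levels of -2.59, -1.82 and -2.16 in KO IIAEK mice against -1.59, -2.11 and -2.30 in WT IIAEK mice. The probes of Cgn also differed in sign for KO minus WT under vehicle (0.06 and -0.35) and for IIAEK in WT mice (0.21 and -0.14).

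**Figure D4:**
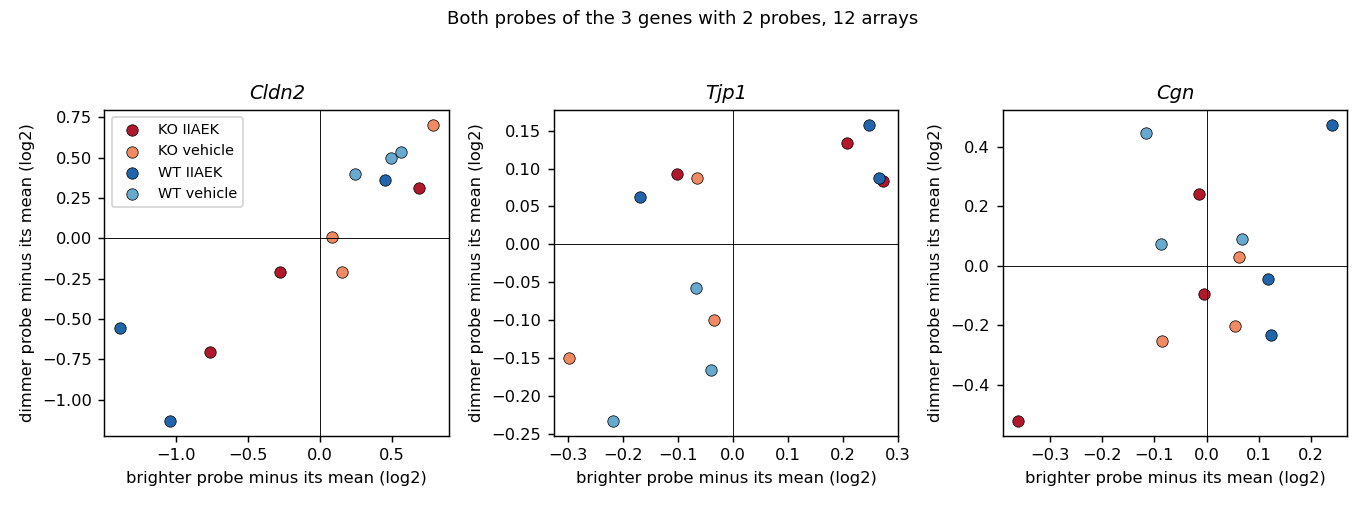
Dimmer probe (vertical axis) against brighter probe (horizontal axis) of the 3 genes with 2 probes, each as log2 level minus the mean of that probe over 12 arrays; points are mice coloured by group, and lines mark 0. The Cldn2 points run along a diagonal, the Tjp1 points do so loosely, and the Cgn points do not.

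Pairs of members were compared separately within the 6 arrays with high and the 6 with low gastric surface genes, because the arrays fall into these clusters. Of 72 correlations, 5 had an exact permutation p under 0.05 (two-sided, n = 6), and none passed after Benjamini-Hochberg adjustment, where the lowest value was 0.6. Cldn3 and Cldn15 had r = 0.87 (exact permutation p = 0.025, adjusted 0.6) and rho = 0.77 (exact permutation p = 0.103) among the high arrays, and r = 0.19 among the low ones. Leaving out the 2 arrays farthest from the Cldn3 median gave r = 0.80 among the high arrays. Values without 2 arrays rest on only 4 arrays, here and below. Among the low arrays, Cldn4 and Tjp1 had r = -0.81 (exact permutation p = 0.0222, adjusted 0.6, the smallest raw p of the 72) and rho = -0.77 (exact permutation p = 0.103), with r = -0.38 among the high ones and r = -0.88 among the low ones without the 2 arrays farthest from the Cldn4 median. Cldn7 and Cldn15 had r = 0.82 (exact permutation p = 0.0319, adjusted 0.6) and rho = 0.94 (exact permutation p = 0.0167) among the low arrays, with r = 0.60 among the high ones and r = 0.55 among the low ones without the 2 arrays farthest from the Cldn7 median. The other two were Cldn3 with Cldn7 among the high arrays (r = 0.83, exact permutation p = 0.0417) and Cldn3 with Ocln among the low ones (r = -0.83, exact permutation p = 0.0403), both with rho of the same sign (0.77 and -0.77, exact permutation p = 0.103 for both). Both sets of arrays mix groups, the low ones being 4 IIAEK and 2 KO vehicle mice, and the permutations do not take the groups into account. All members of an array share its RNA and its scaling, so these relations include whatever differs between arrays as a whole.

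The other genes of the junction were read from lists that hold the rest of each protein group. Of 19 other claudins, 18 had a probe and 11 passed the filter on dim probes, and Cldn6, Cldn11, Cldn16, Cldn19 and Cldn24 were above background on no array. None of the 11 was called in any comparison. Cldn23, a claudin known from differentiated intestinal epithelium, had levels of 0.67, 0.62 and 0.66 in KO IIAEK mice, 0.60, 1.25 and 0.83 in KO vehicle mice, 0.13, 0.24 and 0.61 in WT IIAEK mice, and -0.09, -0.14 and 0.20 in WT vehicle mice. Every KO mouse was above every WT mouse of the same treatment, and the closest pair, under IIAEK, read 0.62 in KO and 0.61 in WT. KO minus WT was 0.90 under vehicle (SE 0.19, 1.87-fold, limma adjusted p = 0.665) and 0.32 under IIAEK (SE 0.19). Averaged over treatments it was 0.61 (SE 0.13, limma adjusted p = 0.661). The IIAEK effect in KO minus that in WT was -0.58 (SE 0.27, 95% CI -1.16 to 0.01) and did not pass the test. KO minus WT under vehicle was 0.72 on slide 1 and 0.84 on slide 2, and under IIAEK it ran from 0.06 to 0.46 over the alternatives. The vehicle comparison of Cldn23 had the smallest p among the other junction genes. Cldn10 read -4.59 in WT vehicle mouse 1, the mouse low in pancreatic genes, and -2.46 to 1.01 in the others.

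**Figure D5:**
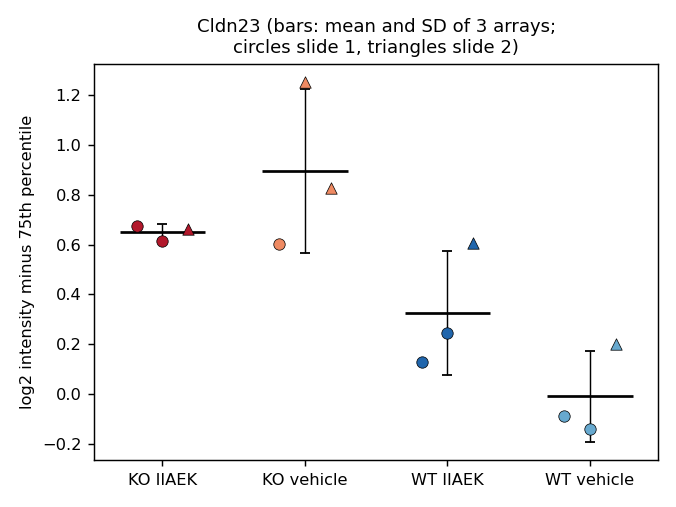
Level of Cldn23 (vertical axis, log2 intensity minus the 75th percentile of the array) in KO IIAEK, KO vehicle, WT IIAEK and WT vehicle mice; points are mice (circles slide 1, triangles slide 2), horizontal lines means and error bars the SD of 3 mice. The 6 KO mice read 0.60 to 1.25 and the 6 WT mice -0.14 to 0.61.

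Of 8 other membrane proteins of the junction, all were tested and none was called in any comparison. Ildr1, the gene of the tricellular junction protein angulin-2, was -0.75 for IIAEK against vehicle averaged over genotypes (SE 0.32, limma adjusted p = 0.99998). It read -2.63, -2.64 and -1.39 in KO IIAEK mice, -1.54, -1.43 and -1.95 in KO vehicle mice, -3.12, -3.48 and -1.71 in WT IIAEK mice, and -1.53, -2.17 and -1.84 in WT vehicle mice. Its 4 lowest mice were the 4 that were lowest for Cldn2, all on slide 1 and all with low gastric surface genes. Over the alternatives the Ildr1 difference for IIAEK ran from -1.45 to 0.13 in WT mice and from -1.09 to 0.30 in KO mice. The part of slide and gastric content in it was not tested. Of 19 other plaque and polarity proteins, none was called, and 4 to 14 were above 0 in the 7 comparisons, with medians of -0.04 to 0.13, against 44.1% to 56.3% of all features above 0 and medians of -0.04 to 0.03. Magi3, a PDZ scaffold, was 0.59 higher under IIAEK in WT mice (SE 0.18, limma adjusted p = 0.999), where it read 0.71, 1.22 and 0.83 under IIAEK and 0.41, 0.25 and 0.32 under vehicle without overlap. Pard6b, of the apical polarity complex, was 0.57 higher in KO than in WT mice under vehicle (SE 0.25, limma adjusted p = 0.993), without overlap. None of 8 adherens junction genes or 8 desmosome genes was called, and the largest desmosome difference at an unadjusted p under 0.05 was 0.48 for Dsc2, a desmosomal cadherin gene, with IIAEK in WT mice (SE 0.21).

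The named genes whose levels over the 12 arrays were most like each member were ranked by Pearson r among 15582 genes, as a description, since the best of so many is high by selection. For Cldn2 they were Eef1akmt4 (r = 0.96, rho = 0.87) and Kcnk1 (r = 0.95, rho = 0.90). Cldn15 was most like Pdzd3 (r = 0.95, rho = 0.93) and Cryl1 (r = 0.93, rho = 0.93). For Cldn3 they were Zfp113 and Amer1 (r = 0.94 and 0.91), for Cldn7 Phactr2 and Zfp688 (r = 0.93 and 0.88), and for Cldn4 2700062C07Rik and Ly6m (r = 0.95 and 0.94). Ocln was most like 9930012K11Rik and Gm9731 (r = 0.95 and 0.92), and F11r like Tfg and Braf (r = 0.91 and 0.89). Tjp1 was most like Tle4 and Fancf (r = 0.94 and 0.93), and Cgn like Nedd4l and Zdhhc23 (r = 0.86 for both, with rho of 0.58 and 0.54). No member appeared among the 2 most like genes of another member.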

How the data were processed

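Per the file headers, Feature Extraction 10.7.3.1 produced the deposited scanner files, which give for each spot a processed intensity that is background-subtracted but not scaled between arrays. The authors' deposited value table holds log2 values that match log2 processed intensity minus each array's 75th percentile, with the median of each probe over the arrays set to 0 (correlation of at least 0.9999 with recomputed values on every array). Its column medians ran from -0.09 to 0.12; scale and centring were thus settled from the values, and the sources used here do not describe its making.

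Of 62976 spots, 3671 controls were left out, and outlier flags removed 22 of 56605 probes. Log2 processed intensity minus the 75th percentile was fitted with limma 3.58.1 in R 4.3.3, with 1 mean per group over all 12 arrays, an intensity trend and Benjamini-Hochberg adjustment over 26107 features; calls were made at an adjusted p under 0.05. Features were kept where all 3 arrays of some group were well above background, and the brightest probe stood for a gene. The script was tested on simulated data. Accessions were named through RefSeq for 32978 probes. The background correction normexp (offset 50) used the median signal, because the files hold no mean signal column. Other alternatives were quantile scaling, the deposited table, other filters and probe rules, no trend, replicate or slide blocks, single slides, tissue levels as covariates, only the groups compared, and leaving out each array. The covariate of gastric surface genes alone was added after seeing the data. Named genes were all 9 members in every comparison, Akp3, and up to 3 genes with the smallest p per comparison from each other junction list. Of the latter, each gene under an unadjusted p of 0.05 in some comparison is given here, but not for every such comparison. Cldn10 and Alpi were chosen after their values were seen. The members and lists were chosen with earlier results of these data known.

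The labels number the mice but do not say that numbers are shared between groups. Correlations of the deviations ran from -0.25 to 0.70 (median 0.14) over 18 pairs of arrays with the same number. Over 36 pairs with other numbers they ran from -0.72 to 0.65 (median -0.13). Because the labels do not link the numbers, they were not treated as pairs, and a replicate block was run as an alternative. The number of arrays limits the precision: the median SE of a difference between 2 groups was 0.24 on the log2 scale. Nothing in the labels says how RNA extracts were handled, so p-values measure the spread between these 12 samples.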

Additional observations from a re-analysis of the deposited data

How the results depend on the processing

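The count of members called stayed at 0 in all 7 comparisons under every alternative run except 1. Within slide 1 alone, 1 member (Cldn2) was called for IIAEK against vehicle in WT mice and 1 (Cldn2) averaged over genotypes; slide 1 holds 7 arrays, and the cause was not tested. How many of all features were called within slide 1 is not given here, so the Cldn2 calls there have no share to be set against. Without each array in turn the counts of members were 0 throughout. With the replicate block they were 0 as well, and the Cldn2 difference in WT mice kept its value of -1.09 (limma adjusted p = 0.958). Of 1674 fold changes of members under alternatives, 82 turned sign, all of them differences that did not pass the test. Under quantile scaling the sign turned for Cgn, Cldn7, Cldn15 and F11r, and under normexp for Cldn3, Cldn15 and Tjp1, each in some comparisons only. Without WT IIAEK mouse 3, Cldn2 was -1.65 in WT mice (adjusted p = 0.543), and without WT IIAEK mouse 2 it was -0.73. Over all features, the number called ranged over the alternatives from 0 to 257 for IIAEK in WT mice, from 0 to 255 in KO mice, from 0 to 250 averaged over genotypes, from 0 to 80 for KO against WT under vehicle, from 0 to 14 under IIAEK, from 2 to 49 averaged over treatments, and from 0 to 35 for the difference. With 3 mice a group, differences of the size of the median SE cannot be resolved.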
